A study of Mus musculus with 8 samples.

Results

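DnaJ proteins, also called Hsp40 or J-proteins, were examined as 39 genes of the classes A, B and C in bulk RNA from MC38 tumors. Members were all genes of the count table whose symbol begins with Dnaja, Dnajb or Dnajc followed by a digit and whose counts summed to 80 or more over the 8 tumors. Of the 24421 genes in the table, 45 had such a symbol and 39 reached the minimum, 4 in class A, 10 in class B and 25 in class C. The 6 symbols under the minimum were Dnajb3, Dnajb7, Dnajb8, Dnajc5b, Dnajc5g and Dnajc28, which had between 0 and 66 counts in all. Each of the 39 members passed the expression filter of the test, so none was lost.

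The study compared 4 photoconverted and 4 control tumors, 4 mice per group, to ask whether the light used for labeling alters the tumor. Female B6 Kaede mice of 9 weeks carry the photoconvertible protein Kaede, which emits green light and turns to red emission under violet light. They received 250000 MC38 cells, a mouse colon adenocarcinoma line. On day 10 the photoconverted group received violet light of 405 nm during 3 min, and these tumors were taken 5 h afterwards. Tumors of the control group carried the same transgene and the same cells, were left unexposed and were collected at the same time.

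J-proteins bind an Hsp70 partner through their J domain, speed up its ATP hydrolysis and hand it client proteins. Class A proteins keep the glycine-rich and zinc-finger regions of the bacterial DnaJ, class B proteins lack the zinc finger, and class C proteins share little beyond the J domain. Cytosolic members of the classes A and B work in protein folding and disaggregation and include heat-inducible genes driven by heat shock factor 1, whereas many class C members serve a fixed task in a compartment, such as mitochondrial import, disulfide reduction in the endoplasmic reticulum or clathrin uncoating.

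Heat shock factors bind heat shock elements, which are inverted repeats of the unit GAA. RefSeq promoter windows of GRCm38.p6, from 250 bases before to 50 bases after each annotated start, were at hand for 32 of the 39 members. A pair of units head to head or tail to tail, that is GAA, any 2 bases and TTC, or TTC, any 2 bases and GAA, reads alike on both strands. Such a pair was in the windows of 6 of 32 members (18.8%), against 17.0% of 27025 genes, so pairs were about as frequent as elsewhere. A run of 3 units was in the windows of 1 member, Dnajb6, against 0.662% of all genes. The stretches around the pairs of all 6 members are shown. Log2 fold changes between photoconverted and control tumors were 2.35 for Dnaja4, 0.79 for Dnaja1 and 0.80 for Dnajb4, with overlapping groups in each. They were near 0 for Dnajb6, Dnajc10 and Dnajc27 (0.12, -0.06 and -0.05). Capitals mark the units, and each stretch is written 5′ to 3′ on the strand of its gene.
Dnaja4, chr9:54699458-54699487, plus strand: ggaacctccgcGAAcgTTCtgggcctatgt
Dnaja4, chr9:54699496-54699525, plus strand: gcctcctggcgGAAccTTCcgccggcgccg
Dnaja1, chr4:40722333-40722362, plus strand: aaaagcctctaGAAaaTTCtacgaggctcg
Dnajb4, chr3:152193841-152193870, minus strand: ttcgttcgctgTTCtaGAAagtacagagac
Dnajb6, chr5:29735844-29735872, plus strand: agctccgaGAAtcTTCcgGAAcgctagac
Dnajc10, chr2:80315273-80315302, plus strand: aacaattttatTTCtaGAAaactttaatta
Dnajc27, chr12:4082350-4082379, plus strand: cacccatcggtGAAgaTTCcaggaaaaaaa

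The window of Dnajb1 held none of these pairs. It held the CCAAT box, a common promoter element, at bases -151 to -147 on the opposite strand (in capitals below as ATTGG), and a further CCAAT box after the start. CCAAT boxes were in windows of 12 of 32 members (37.5%), against 41.1% of all genes. These letters describe the windows and say nothing about binding. The 250 bases before the annotated start of Dnajb1 are shown because this gene had the highest mean level of the DnaJ members in photoconverted tumors. It led in photoconverted tumors 1 and 3 only.
Dnajb1, chr8:83607925-83608174, plus strand: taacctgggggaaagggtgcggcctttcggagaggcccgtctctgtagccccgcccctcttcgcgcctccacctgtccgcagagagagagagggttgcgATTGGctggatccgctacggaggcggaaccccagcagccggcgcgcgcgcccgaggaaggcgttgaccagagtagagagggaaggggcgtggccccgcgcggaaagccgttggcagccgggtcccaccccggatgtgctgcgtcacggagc

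Libraries held 16735293 to 35844417 counts in photoconverted tumors and 12576615 to 29439901 in control tumors. The share of counts on Rn45s, the precursor of ribosomal RNA, was 21.9% in photoconverted tumor 4, 35.7% in control tumor 2 and 23.2% in control tumor 4, and between 2.7% and 9.65% in the other 5 libraries. Markers of epithelium that colon tumor cells could express (Krt8, Krt18, Cdh1, Epcam) summed to only 2.08 to 5.18 CPM in any tumor. CPM are read counts scaled by TMM to a common library size, which corrects for depth and composition. Skeletal muscle markers summed to 424, 723, 1360 and 160 CPM in photoconverted tumors 1 to 4 and to 293, 346, 420 and 162 CPM in control tumors 1 to 4, and 10 of 10 of them had a log2 fold change above 0. Neutrophil markers summed to 63.6, 74.5, 108 and 20.1 CPM in photoconverted tumors and to 17.4 to 28.8 CPM in control tumors. Keratinocyte and adipocyte markers reached 16.7 and 13.4 CPM in photoconverted tumor 3, against at most 2.45 and 4.80 CPM in control tumors. Photoconverted tumor 4 was thus at or near the control range in these lists, and results are given with and without it. Hspa1a, the inducible Hsp70 gene, had 3530, 2690, 5470 and 71.6 CPM in photoconverted tumors 1 to 4 and 51.5, 51.1, 31.2 and 433 CPM in control tumors 1 to 4. Control tumor 4 was thus above photoconverted tumor 4, which goes against the direction of the other 6 tumors. The labels of both tumors were used as given, every group difference rests on them, and a fit without both was added after the values were seen. In bulk RNA, fewer cells of a type and less RNA per cell cannot be told apart.

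The mean difference lay in a few cytosolic members. The fitted level in photoconverted tumors was 5.09-fold that of controls for Dnaja4, 3.55-fold for the heat-inducible Dnajb1 and 1.73-fold for Dnaja1, whereas most class C members, with their tasks in single compartments, were at the control level. These 3 differences came from photoconverted tumors 1 to 3, and none of them passed the threshold. By the quasi-likelihood test of edgeR, 0 of 39 members reached an adjusted p under 0.05, beside a background of 0% (0 of 14468 genes tested). At an unadjusted p under 0.05, 3 of 39 members were counted, all 3 of them higher in photoconverted tumors, where the edgeR background was 2.23% of genes in either direction and 1.65% for higher genes. DESeq2's Wald test called 1 member, Dnaja4, where it called 0.141% of genes, and limma called 0. With the replicate number as a block, 4 members had an unadjusted p under 0.05 in edgeR, all higher. Of all genes 6.01% did so in either direction, and 633 of 14468 as higher genes. In none of the 39 members were all 4 photoconverted tumors above or all 4 below the control tumors, where 0.684% and 0.643% of all genes were. Photoconverted tumors 1 to 3 all lay above every control tumor in 4 members, Dnaja4, Dnaja1, Dnajb1 and Dnajc19, and in 3.83% of all genes. With both tumors numbered 4 left out, the log2 fold change was 2.65 for Dnaja4, 2.15 for Dnajb1 and 0.95 for Dnaja1 (adjusted p = 0.274, 0.238 and 0.245 in edgeR), and again 0 members were called.

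**Figure D1:**
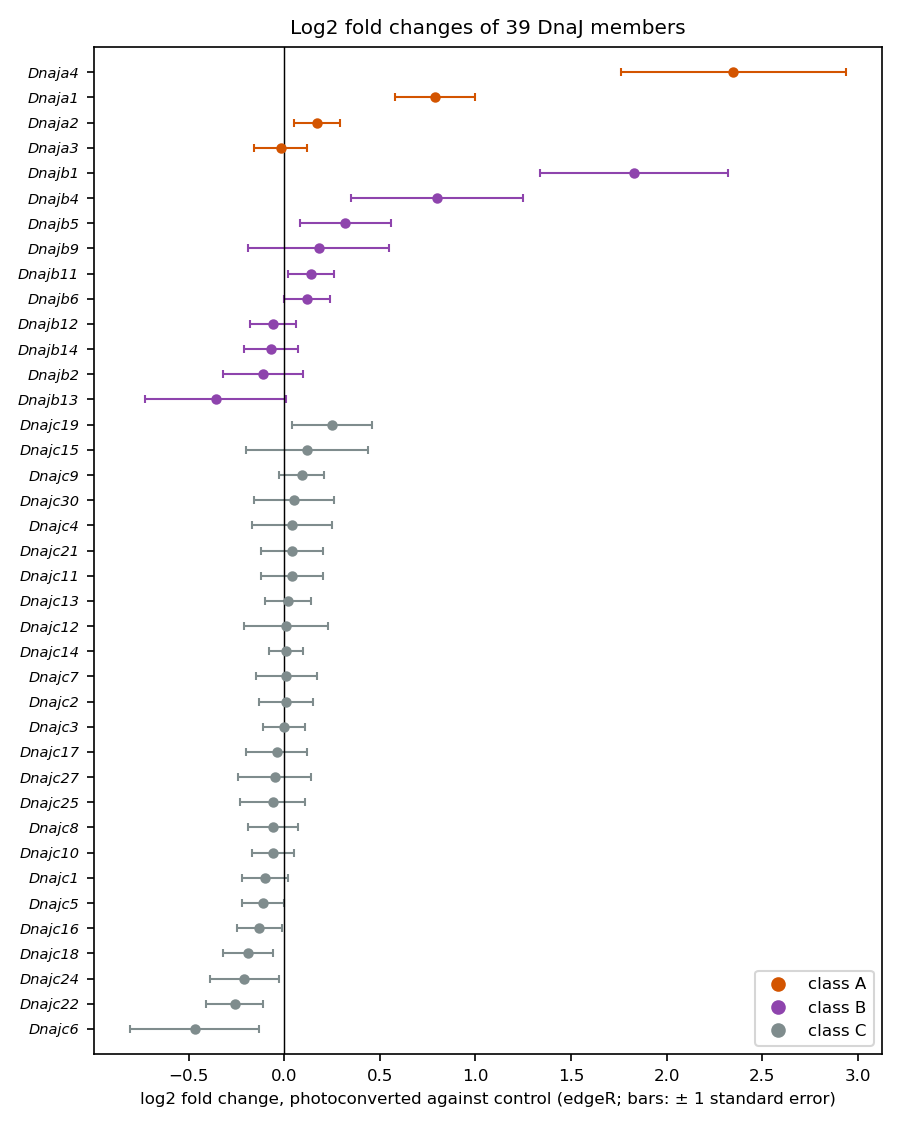
Log2 fold change of photoconverted against control tumors (horizontal axis, edgeR) for the 39 DnaJ members (vertical axis), colored by class, where bars are 1 standard error either way and n = 4 tumors per group. Dnaja4 (2.35), Dnajb1 (1.83), Dnajb4 (0.80) and Dnaja1 (0.79) stand to the right, and class C lies between -0.47 and 0.25.

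By class, the median log2 fold change was 0.48 in class A (from -0.02 to 2.35, 3 of 4 members above 0), 0.13 in class B (from -0.36 to 1.83, 6 of 10 above 0) and 0.00 in class C (from -0.47 to 0.25, 13 of 25 above 0). Over all genes tested the median was -0.01, with 46.8% of genes above 0. In class C, 23 of 25 members lay within 0.25 of 0 on the log2 scale, as did 77.9% of all genes. In class A the 2 members far from 0 were Dnaja4 and Dnaja1, and in class B they were Dnajb1 and Dnajb4, apart from the other 8. Sorted by compartment, the 14 members of cytosol and nucleus had a median log2 fold change of 0.11 with 11 above 0, and all 3 members with an unadjusted p under 0.05 in edgeR were among them. The 11 members of the endoplasmic reticulum had a median of -0.06 with 4 above 0. The 6 mitochondrial members had a median of 0.05, and the 4 members of vesicles and endosomes a median of -0.08.

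**Figure D2:**
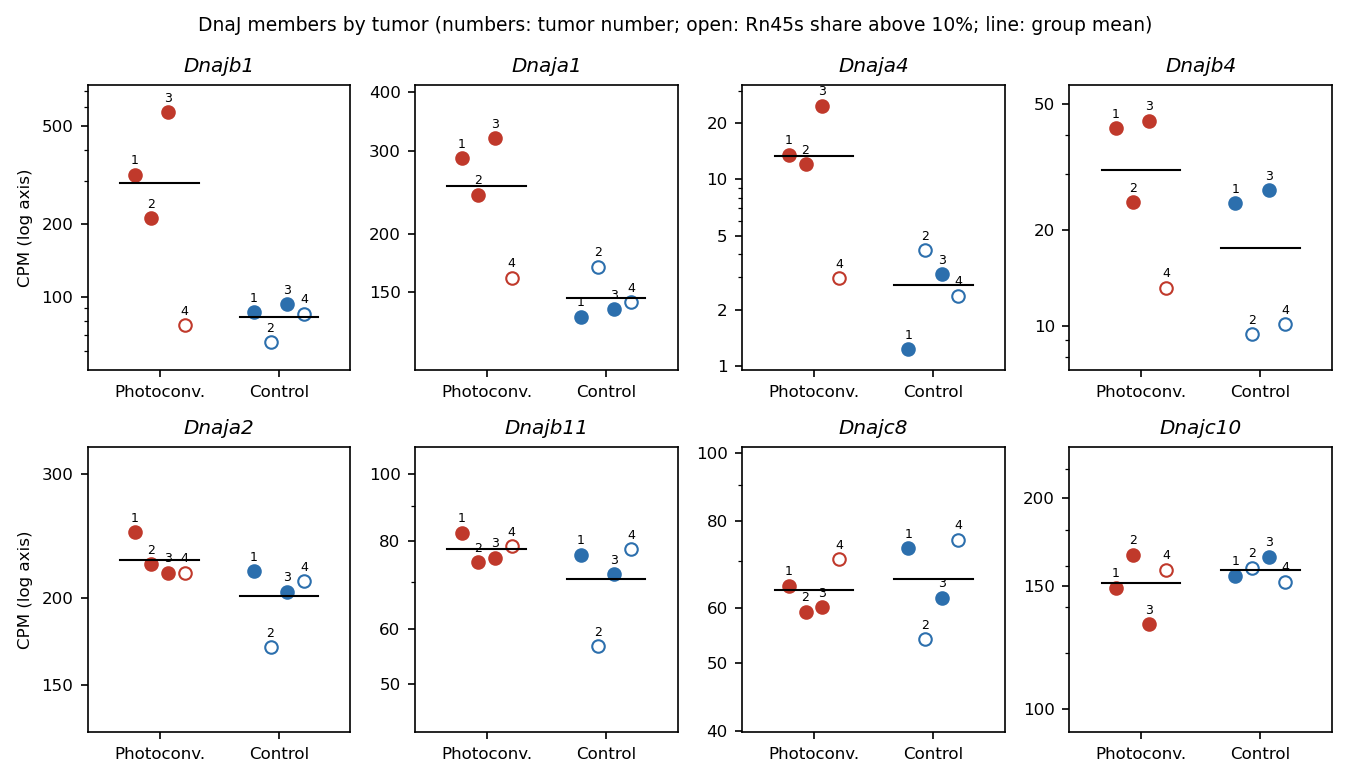
CPM (vertical axis, logarithmic) of 8 DnaJ members in each photoconverted and control tumor, where digits give the tumor number, lines the group mean and open points an Rn45s share above 10%. In Dnajb1, Dnaja1 and Dnaja4, photoconverted tumors 1 to 3 lie above all control tumors and photoconverted tumor 4 lies among or next to them. In the 4 members of the lower row the groups overlap, in Dnaja2 only through control tumor 1.

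Among the class A members, Dnaja4 (chr9:54698873-54716315) encodes a cytosolic J-protein, and its transcript was scarce in control tumors. Its level was 13.6, 12.1, 24.9 and 2.94 CPM in photoconverted tumors 1 to 4 and 1.23, 4.17, 3.09 and 2.38 CPM in control tumors 1 to 4. Photoconverted tumors 1 to 3 were above every control tumor, and photoconverted tumor 4 lay inside the control range. The log2 fold change was 2.35 (standard error 0.59, edgeR adjusted p = 0.999, unadjusted p = 0.00316), with an exact permutation p of 0.0857 (two-sided, n = 4 per group, where 4 tumors against 4 allow no p below 0.0286). DESeq2's Wald test gave 2.32 with an adjusted p of 0.0322. Without photoconverted tumor 4 the log2 fold change was 2.68 (edgeR adjusted p = 0.0912), and among the 5 tumors whose Rn45s share was under 10% it was 2.98 (edgeR adjusted p = 0.0627).

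Dnaja1 (chr4:40722150-40737149) encodes a farnesylated J-protein of the cytosol. It had 290, 242, 320 and 161 CPM in photoconverted tumors 1 to 4 and 133, 170, 138 and 143 CPM in control tumors 1 to 4. Photoconverted tumor 4 was below control tumor 2 only. The log2 fold change was 0.79 (standard error 0.21, edgeR adjusted p = 0.999, unadjusted p = 0.00362), and the two-sided exact permutation p was 0.0571. Among the 5 tumors whose Rn45s share was under 10%, 3 photoconverted and 2 control, Dnaja1 rose by 1.07 on the log2 scale (standard error 0.14, adjusted p = 0.0291 in edgeR), where 0.275% of the genes of that fit were called. These 5 tumors leave out control tumor 4, photoconverted tumor 4 and control tumor 2. The last 2 held the lowest photoconverted and the highest control value of Dnaja1. Dnaja1 was the only member called there, and without photoconverted tumor 4 among 7 tumors its log2 fold change was 0.96 (edgeR adjusted p = 0.0912).

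The other 2 class A members stayed close to the control level. Dnaja2 (chr8:85537633-85555344), a cytosolic refolding partner of Hsc70, had 248, 223, 217 and 217 CPM in photoconverted tumors and 218, 170, 204 and 211 CPM in control tumors. The log2 fold change was 0.17 (standard error 0.12), and the groups overlapped only through control tumor 1. Dnaja3, which encodes the mitochondrial Tid1, had 54.9, 54.2, 47.1 and 68.3 CPM in photoconverted tumors and 59.6, 52.1, 52.1 and 64.2 CPM in control tumors, and its log2 fold change of -0.02 (standard error 0.14) changed sign with single tumors left out. Its highest values were in tumors 4 of both groups.

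In class B, Dnajb1 (chr8:83608193-83612653) encodes the classical heat-inducible Hsp40. It had 317, 210, 571 and 76.9 CPM in photoconverted tumors 1 to 4 and 86.8, 65.3, 93.4 and 85.5 CPM in control tumors 1 to 4. The spread among photoconverted tumors was far wider than among controls, with photoconverted tumor 4 below 3 of the 4 controls. Group means were 294 ± 209 and 82.8 ± 12.2 CPM (SD, n = 4 each). The log2 fold change was 1.83 (standard error 0.49, edgeR adjusted p = 0.999, unadjusted p = 0.00461), with a two-sided exact permutation p of 0.114. It was 2.14 without photoconverted tumor 4 (edgeR adjusted p = 0.0795) and 1.28 without photoconverted tumor 3.

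Dnajb4 (chr3:152178511-152210302), a close relative of Dnajb1 in the cytosol, varied with the library as well. Its level was 41.9, 24.5, 44.3 and 13.2 CPM in photoconverted tumors 1 to 4 and 24.3, 9.42, 26.7 and 10.1 CPM in control tumors 1 to 4. The groups overlapped broadly, yet the photoconverted tumor was the higher of each same-numbered pair in 4 of 4 pairs. The titles state no pairing, and it was taken from correlations in these same data. The log2 fold change was 0.80 (standard error 0.45, unadjusted p = 0.109 in edgeR) and, with the replicate number as a block, 0.81 (standard error 0.16, unadjusted p = 0.000951, adjusted p = 0.442 in edgeR). In all, 6 members were higher in 4 of 4 pairs (Dnaja1, Dnaja2, Dnaja4, Dnajb4, Dnajb11 and Dnajc19), against 7.2% of all genes, and 3 were lower in 4 of 4 (Dnajc5, Dnajc18 and Dnajc22), against 7.18%. Dnajb1 was higher in 3 of 4.

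Dnajb5, Dnajb6 and Dnajb11 had smaller differences. Dnajb5, a cytosolic protein related to Dnajb1, had 4.53, 4.55, 6.62 and 3.83 CPM in photoconverted tumors and 3.94, 4.60, 4.27 and 2.93 CPM in control tumors (log2 fold change 0.32, standard error 0.24). Dnajb6, which keeps polyglutamine proteins from aggregating, had 67.6, 55.3, 61.4 and 52.3 CPM in photoconverted tumors and 55.4, 49.8, 58.9 and 53.5 CPM in control tumors (log2 fold change 0.12, standard error 0.12). Dnajb11, the soluble partner of BiP in the endoplasmic reticulum, had 82.3, 74.7, 75.8 and 78.7 CPM in photoconverted tumors and 76.5, 56.6, 71.8 and 77.9 CPM in control tumors (log2 fold change 0.14, standard error 0.12). All 3 overlapped between the groups, and control tumor 2 was lowest of the 8 tumors in Dnajb6 and Dnajb11. Of the remaining class B members, Dnajb9, an unfolded protein response target, had a log2 fold change of 0.18. Dnajb12 and Dnajb14, which sit in the membrane of the endoplasmic reticulum, had -0.06 and -0.07, and Dnajb2, best known from neurons, had -0.11. Dnajb13, a protein of sperm flagella and cilia, had at most 0.971 CPM and a log2 fold change of -0.36 (standard error 0.37).

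**Figure D3:**
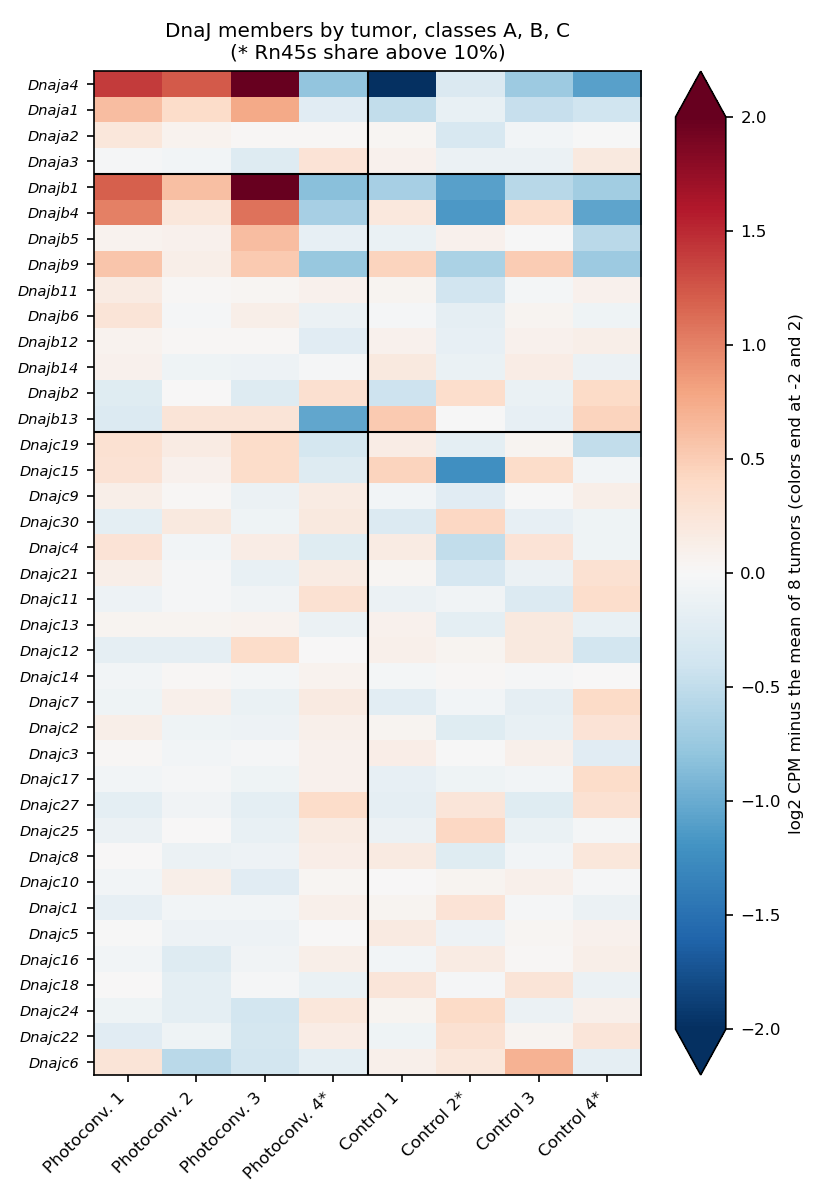
Log2 CPM of each DnaJ member (rows) in each tumor (columns) minus the mean of that member over the 8 tumors, with colors ending at -2 and 2, classes divided by horizontal lines and stars on the 3 libraries with an Rn45s share above 10%. Dnaja4, Dnaja1 and Dnajb1 are red in photoconverted tumors 1 to 3 and not in photoconverted tumor 4, and Dnajb4 and Dnajb9 are blue in the starred columns of both groups.

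With all 8 tumors and no covariate, no class C member had an unadjusted p under 0.05 in edgeR. The smallest p was that of Dnajc22, a membrane protein related to Drosophila wurst, with 18.2, 20.1, 16.7 and 23.6 CPM in photoconverted tumors and 20, 26.5, 22.1 and 25.2 CPM in control tumors (log2 fold change -0.26, standard error 0.15, unadjusted p = 0.131 in edgeR). Dnajc18 of the endoplasmic reticulum had 21.8, 18.9, 21.2 and 19.7 CPM in photoconverted tumors and 25.6, 21.4, 25.9 and 20.1 CPM in control tumors (log2 fold change -0.19, standard error 0.13). Other fits gave both genes a smaller p. With the Rn45s share as a covariate the unadjusted p was 0.0269 for Dnajc22 and 0.0278 for Dnajc18, without photoconverted tumor 4 it was 0.0493 for Dnajc22, and among the 5 tumors whose Rn45s share was under 10% it was 0.0251 for Dnajc18, with adjusted p between 0.413 and 0.827 in edgeR. In both genes the photoconverted mean was lower, by less than the span between the lowest and the highest control tumor. Dnajc6 encodes auxilin, which removes clathrin coats, mainly in neurons. Its counts were few, with 0.776, 0.411, 0.473 and 0.547 CPM in photoconverted tumors and 0.685, 0.749, 1.07 and 0.549 CPM in control tumors, and its log2 fold change of -0.47 (standard error 0.34) rested on 7 to 31 counts per tumor.

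Dnajc19, a subunit of the mitochondrial import motor, had the highest log2 fold change of class C. It had 14.3, 13, 15 and 9.09 CPM in photoconverted tumors and 12.8, 10.1, 12.1 and 8.18 CPM in control tumors (log2 fold change 0.25, standard error 0.21). Tumor 4 was the lowest of its group on both sides.

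The abundant class C members were level between the groups. Dnajc8, linked to the spliceosome, had 64.6, 59.3, 60.1 and 70.5 CPM in photoconverted tumors and 73.1, 54.1, 62.1 and 75.1 CPM in control tumors (log2 fold change -0.06, standard error 0.13). Dnajc10, a disulfide reductase of the endoplasmic reticulum, had 149, 166, 132 and 158 CPM in photoconverted tumors and 155, 159, 165 and 152 CPM in control tumors (log2 fold change -0.06, standard error 0.11). Dnajc2, which binds ribosomes, had 77.6, 67.6, 66.3 and 76.6 CPM in photoconverted tumors and 74.4, 60.2, 64.2 and 86.7 CPM in control tumors (log2 fold change 0.01, standard error 0.14). The other 18 class C members had log2 fold changes between -0.21 (Dnajc24, of diphthamide synthesis) and 0.12 (Dnajc15, of the mitochondrial inner membrane). They included Dnajc3, an inhibitor of eIF2 alpha kinases, at 0.00, the cysteine string protein Dnajc5 at -0.11, the endosomal Dnajc13 at 0.02 and the cochaperone Dnajc7 at 0.01. The steadiest member, picked after its values were seen, was Dnajc14, which stayed between 46.7 and 50.6 CPM over all 8 tumors.

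Levels were compared between genes as TPM, which divides counts by the length of the longest principal transcript. In control tumors Dnaja2 led with 152 ± 22.8 TPM, ahead of Dnajc8 with 104 ± 15.4, Dnajc10 with 86.1 ± 11.1 and Dnajb6 with 74.9 ± 11.3 TPM (SD, n = 4 each). Next came Dnajc2 with 73.1 ± 8.50 and Dnajc7 with 72.6 ± 7.06 TPM, and Dnajb6, Dnajc2 and Dnajc7 differed by less than their spread. Dnajb11, Dnajb1, Dnajc5 and Dnaja1 followed between 57.1 and 61.9 TPM, again without a gap beyond their spread, and Dnajb1 was rank 8 of 39. In photoconverted tumors Dnajb1 had the highest mean level, 215 ± 158 TPM, Dnaja2 was rank 2 with 167 ± 15.1 TPM and Dnaja1 was rank 3 with 97.9 ± 30.1 TPM. Dnaja4 moved from rank 37 (1.99 ± 0.938 TPM) to rank 29 (9.80 ± 6.78 TPM), and Dnajb13 and Dnajc6 were last in both groups. The order depends on the length used. With all exons of a gene merged, an alternative chosen after the values were seen, Dnaja2 stayed at rank 1 in control tumors, Dnajb1 came to rank 3 and Dnajb6 to rank 16.

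**Figure D4:**
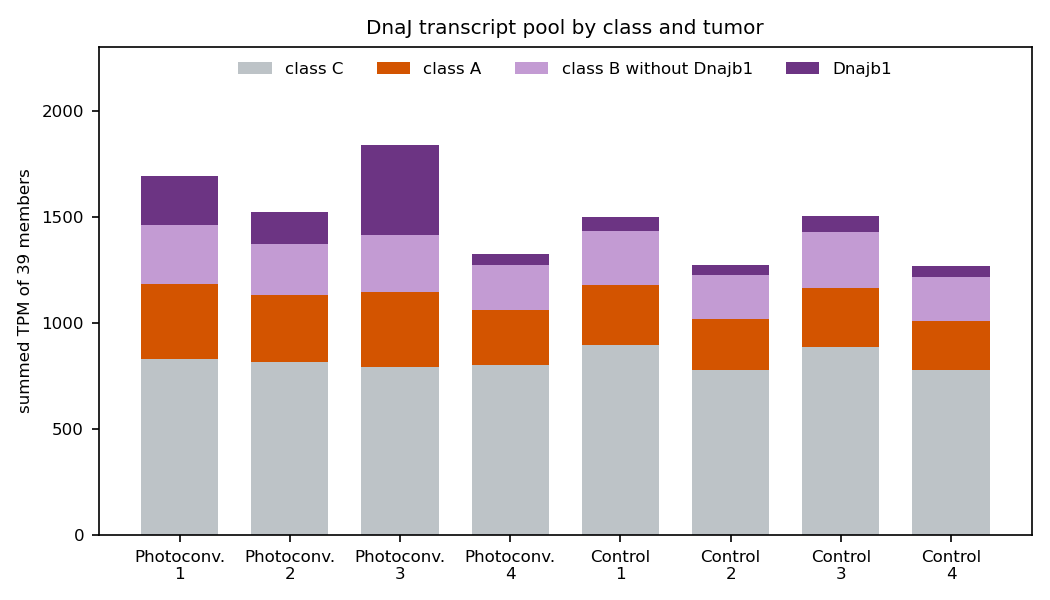
Summed TPM of the 39 DnaJ members (vertical axis) in each tumor (horizontal axis), stacked by class with Dnajb1 apart from the other class B members. The dark Dnajb1 segment reaches 426 TPM in photoconverted tumor 3 and 51.5 TPM in photoconverted tumor 4, while class C stays between 776 and 897 TPM in all 8 tumors.

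The make-up of the DnaJ transcripts differed mostly through Dnajb1. The 39 members summed to 1690, 1520, 1840 and 1320 TPM in photoconverted tumors 1 to 4 and to 1500, 1270, 1500 and 1270 TPM in control tumors 1 to 4. Dnajb1 alone held 13.7%, 10.1%, 23.1% and 3.89% of this sum in photoconverted tumors and 4.51%, 3.75%, 4.96% and 4.27% in control tumors. It was the most abundant member in photoconverted tumors 1 and 3, and Dnaja2 was in the other 6 tumors. The ratio of Dnajb1 to Dnaja2 in TPM was 1.24, 0.917, 2.56 and 0.346 in photoconverted tumors and between 0.375 and 0.447 in control tumors, so photoconverted tumor 4 had the lowest ratio of all. Class B held 30.1%, 25.9%, 37.8% and 19.9% in photoconverted tumors and 20.1% to 22.8% in control tumors. Class A held 20.9%, 20.7%, 19.1% and 19.7% in photoconverted tumors and 18.3% to 18.9% in control tumors. Class C held 49.0%, 53.5%, 43.1% and 60.4% in photoconverted tumors and 59.0% to 61.2% in control tumors. Without Dnajb1, Dnaja1, Dnaja4 and Dnajb4 the members summed to 1240 ± 41.8 TPM in photoconverted and 1250 ± 113 TPM in control tumors (SD, n = 4 each). These 4 genes were set apart because they had the largest log2 fold changes, so the level sum of the others follows from that choice and is only a description.

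Members were separated by the Rn45s share of the library no more often than genes at large. In 8 members, the 3 libraries with a share above 10% all lay below the other 5, and in 5 members all above, where 21% and 23.4% of all genes did. Dnajb9 had 5.19 to 5.67 CPM in these 3 libraries and 9.63 to 13.0 CPM in the other 5, and Dnajb4 had 9.42 to 13.2 and 24.3 to 44.3 CPM. Dnajb2 was the reverse, with 42.3 to 44.4 CPM in the 3 libraries and 25.3 to 33.9 CPM in the other 5. Dnaja1 and Dnaja4 overlapped between these sets of libraries, and Dnajb1 did not, with 65.3 to 85.5 CPM against 86.8 to 571 CPM. The other 5 libraries include photoconverted tumors 1 to 3, so for Dnajb1 the share and the group cannot be told apart. Since only 1 of the 3 libraries was photoconverted, the groups could not be compared within them. With the log2 Rn45s share as a covariate the log2 fold change was 1.54 for Dnajb1, 2.31 for Dnaja4, 0.77 for Dnaja1 and 0.67 for Dnajb4 (adjusted p = 0.633 each in edgeR), and it was -0.22 for Dnajc22 and -0.21 for Dnajc18 (adjusted p = 0.684 each). These 6 members, 4 higher and 2 lower, had an unadjusted p under 0.05 in this fit, against 6.98% of all genes.

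Skeletal muscle markers were highest in photoconverted tumor 3, as were Dnaja4, Dnajb1, Dnaja1 and Dnajb4, and lowest in photoconverted tumor 4. The orders differed elsewhere. Photoconverted tumor 2 had more of the markers than photoconverted tumor 1 (723 against 424 CPM) but less of each of these 4 members. With the mean log2 CPM of the markers as a covariate the log2 fold change of Dnaja4 was 1.40 (standard error 0.46), that of Dnajb1 0.93 (0.35), that of Dnaja1 0.55 (0.18) and that of Dnajb4 0.30 (0.38), with an adjusted p of 0.999 each in edgeR. Each of the 4 values was thus lower than without the covariate. The markers themselves had a higher mean in photoconverted tumors, so this fit cannot tell muscle content and group apart. The part of neutrophils, keratinocytes and adipocytes in these differences was not tested.

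Hsp70 proteins and other partners of the J-proteins were taken from a list of 35 genes, all tested. None had an adjusted p under 0.05 in edgeR, 22 had a log2 fold change above 0, and 6 had an unadjusted p under 0.05, all higher. Over all genes tested, 46.8% had a log2 fold change above 0. An unadjusted p under 0.05 in edgeR was found for 2.23% of all genes, and for 1.65% as higher genes. The 6 partners are not fully separate results, since Hspa1a, Hspa1b and Hspa1l among them share sequence. The 3 smallest unadjusted p were those of Hsph1, Hspa1l and Hspa1b. Hsph1, an Hsp110 that exchanges nucleotides on Hsp70, had 914, 718, 1100 and 256 CPM in photoconverted tumors and 164, 194, 184 and 308 CPM in control tumors (log2 fold change 1.81, standard error 0.41). Hspa1b, an inducible Hsp70, had 4520, 3340, 6680 and 119 CPM in photoconverted tumors and 60.6, 68.8, 79.8 and 623 CPM in control tumors (log2 fold change 4.14, standard error 1.20), though reads of the near-identical Hspa1a may be split unevenly between the copies. Hspa1l, which shares sequence with both, had 92.5, 62.9, 145 and 3.01 CPM in photoconverted tumors and 1.6, 1.28, 1.78 and 14.0 CPM in control tumors (log2 fold change 4.04, standard error 1.13). In these 3 genes photoconverted tumor 4 was far below photoconverted tumors 1 to 3 and above control tumors 1 to 3, and control tumor 4 was higher still, whereas Dnajb1 in control tumor 4, at 85.5 CPM, lay within the range of the other controls. The remaining 3 were Hspa1a (4.38), the constitutive Hsc70 gene Hspa8 (0.56) and the exchange factor Bag3 (1.18). Partners in other compartments were level, with log2 fold changes of -0.03 for Hspa5 (BiP) and -0.05 for the mitochondrial Hspa9, and Hsf1, the heat shock factor itself, had 0.04.

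Some members share genomic sequence with other genes, and whether reads were counted by strand is not given in the sources used here. Dnaja1 overlaps Smu1 and Dnaja4 overlaps Wdr61, both on the opposite strand, and these neighbors had log2 fold changes of 0.02 and 0.11. Dnaja1 also overlaps Mir207 on its own strand, with 0.213 to 5.52 CPM and a log2 fold change of 1.82 (standard error 0.80). Wdr61 had 21.1 to 38.2 CPM, against 1.23 to 4.17 CPM of Dnaja4 in control tumors, so these low counts of Dnaja4 are uncertain. Dnajb13 overlaps Ucp2, which had 39.6 to 96.2 CPM, so its low counts are uncertain. Markers of ciliated or testis cells, where Dnajb13 is known to act, summed to 0.189 to 0.571 CPM, with Tnp1 at 0 in all tumors.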

How the data were processed

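Bulk RNA-seq of 8 tumors was analysed. The authors deposited raw counts of reads per gene symbol and a second table of normalized signal, which equaled the counts divided by DESeq2 size factors (0.416 to 1.77). The submitters' processing notes name CASAVA, Trim Galore, HISAT2, featureCounts, DESeq2 and mm10 (GRCm38), without versions. The study's methods name a TruSeq and the labels a SMARTER stranded total RNA kit, and the strand setting of the counting is not given in the sources used here.

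Counts were tested in R 4.3.3 with edgeR 4.0.16 (TMM, filterByExpr by group, glmQLFit, glmQLFTest) and Benjamini-Hochberg adjustment over 14468 genes at a threshold of 0.05. Alternatives used DESeq2 1.42.0, limma 3.58.1 on log2 values, other scalings and filters, a robust fit, a replicate block, covariates and leaving out each tumor. Log2 CPM had a prior count of 2. TPM used GENCODE M21 transcript lengths. Exact permutation tests ran over 70 arrangements. Members and lists were chosen with earlier results of these data known. Members named with a value in every tumor were the 10 with the smallest p, any without overlap, the 3 with the highest TPM in each class and the largest change in each class. Groups and replicate numbers came from the titles, also for photoconverted tumor 4 and control tumor 4, whose inducible Hsp70 levels ran against those of the other tumors. Deviations from the group means correlated with r of 0.597, 0.107, 0.407 and 0.623 between tumors 1 to 4 of the groups. The mean between different numbers was -0.134. Deviations cancel within each group, so positive same-number values make that mean negative, and it is no separate support. The numbers come from the titles with no stated pairing and were taken to pair the tumors. This pairing rests on the same values as the fits that use it. Photoconverted tumor 4 and control tumor 4 also had high Rn45s shares (21.9% and 23.2%). The part of that share in these correlations was not tested. No libraries were duplicates (smallest chi-square per degree of freedom 25.3). On simulated data with 200 of 14468 genes changed 4-fold, edgeR recovered 169 with 5 false calls and DESeq2 185 with 47. The simulated counts were drawn independently for each tumor, without the Rn45s and same-number patterns of the real libraries. These rates therefore need not hold for the real tumors. Total counts of 12576615 to 35844417 limit the precision of members with few counts. Figures were drawn with matplotlib 3.10.9.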

Additional observations from a re-analysis of the deposited data

Results flagged for a closer look

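A tumor far from the other 3 of its group was found in 3 of the 78 sets of 4 tumors, where chance alone flags about 1 in 20, or 3.9. Dnajb12 had 28.4 CPM in control tumor 2, against 33.5 CPM in the nearest control tumor. Dnajc13 had 141 CPM in photoconverted tumor 4, against 159 CPM in the nearest photoconverted tumor. Dnajc25 had 12.8 CPM in control tumor 2, against 9.34 CPM in the nearest control tumor. Both tumors are among the 3 libraries with an Rn45s share above 10%, and the part of that share was not tested for these 3 genes.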

How the results depend on the processing

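No DnaJ member passed the threshold with DESeq2 size factors, other expression filters, limma, a robust fit, the Rn45s share or muscle markers as a covariate, or Rn45s left out. The replicate block gave 0 called genes, 0 called members and class medians of 0.47, 0.13 and 0.00, and changed no other call. DESeq2's Wald test called 24 genes and 1 member, Dnaja4 (log2 fold change 2.32). Restricted to the 5 tumors whose Rn45s share was under 10%, edgeR called 42 genes and 1 member, Dnaja1 (1.07), with 7 members higher and 8 lower without overlap, where 14.2% and 14.3% of its genes were, and a class C median of -0.10. With each tumor left out in turn, 0 to 11 genes (11 without photoconverted tumor 4) and 0 members were called. Members higher without overlap then numbered 0 to 4 (4 without photoconverted tumor 4, 1 each without control tumors 1 and 2). Of all genes in these fits, 3.93%, 1.47% and 1.5% were higher without overlap. Members lower without overlap numbered 0 to 2 (2 without control tumor 2, 1 without photoconverted tumor 1), where 1.49% and 0.931% of all genes were. With both tumors numbered 4 left out, an alternative added after the data were seen, 12 genes and 0 members were called. In that fit 4 members were higher and 1 lower without overlap, where 5.78% and 4.95% of its genes were. With single tumors left out, the class medians ranged from 0.42 to 0.57 in class A, 0.03 to 0.15 in class B and -0.06 to 0.01 in class C. In at least 1 alternative 18 of 39 members changed sign, none with a log2 fold change beyond 0.18 in either direction in the fit of all 8 tumors. Among the 5 tumors these were 9 members, such as Dnajb9 (-0.07 in place of 0.18), Dnajb2 (0.11 in place of -0.11), Dnajc15 (-0.16 in place of 0.12) and Dnajc4 (-0.10 in place of 0.04). With the muscle covariate Dnaja3 had 0.12 and Dnajc8 0.03, and with each tumor left out Dnaja3 ranged from -0.13 to 0.05, Dnajc8 from -0.14 to 0.01 and Dnajc2 from -0.06 to 0.12. The cause was not tested. Dnajc6 and Dnajb13 were removed by the stricter filter, which kept 37 members, and have no value there. With merged exon lengths, chosen after the data were seen, the class A share of the DnaJ TPM was higher by 0.734 percentage points in photoconverted tumors, in place of 1.49. Depth limits Dnajc6 and Dnajb13, which had 134 and 141 counts over all tumors.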
